A study of Homo sapiens with 5 samples.

Results

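Centromere, kinetochore and chromosomal passenger genes were read on 5 arrays of MDA-MB-231 cells, a human breast cancer line of mesenchymal appearance. The set has 41 genes, listed by name, and it was chosen with earlier results of these data known. Among the probe sets that the annotation gives to a gene alone, under its current or a former name, the brightest on average over the arrays stood for that gene. This left 40 genes of the 19775 tested, and CENPP, whose probe set the annotation gives to several genes, was not analysed here. Cells were given the vehicle DMSO (3 arrays) or 2 uM SAHA (2 arrays) and collected after 30 h. SAHA, also called vorinostat, blocks histone deacetylases, which take acetyl groups off histones and many further proteins. The labels of all samples also speak of lysis some days after a transfection, which no other label describes. Whether replicates were separate cultures is not in the labels, so a p-value here reflects the spread among these arrays alone, and that spread may be technical.

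Centromeres are marked by nucleosomes that hold the histone H3 variant CENP-A, loaded by a dedicated chaperone after each division. A constitutive network of proteins sits on these nucleosomes and carries the outer kinetochore, whose NDC80 complex holds the ends of spindle microtubules. The spindle checkpoint delays anaphase until chromosomes are attached, the chromosomal passenger complex corrects wrong attachments, and shugoshins protect cohesion at the centromere. In dividing cells many of these genes are transcribed mostly late in the cell cycle, so their level in a population also follows how many cells are near mitosis. In these bulk samples fewer such cells and less RNA per cell cannot be told apart.

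Most of the set was lower after SAHA. At a limma adjusted p under 0.05 over all genes tested, 30 of the 40 measured genes (75%) fell, against 15.6% of all 19775 genes. None rose (0 of 40, with 14.0% of all genes higher; 0 in an unmoderated test, and 1 gene, NSL1, at an unadjusted p under 0.05). The median log2 fold (SAHA minus DMSO) was -0.998, against -0.03 over all genes. Falls of at least 2-fold were called for 20 of the 40 and for 2.54% of all genes. Both SAHA arrays lay below every DMSO array for 33 of the 40 (26.0% of all genes), above every DMSO array for NSL1 alone (22.1%), and overlapped them for 6. Of the 40, 27 lay among the lowest 5% of all genes by log2 fold. CDCA8, a subunit of the passenger complex, fell most, 3.09-fold, and SKA2 of the SKA complex fell least among the called genes, 1.24-fold.

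**Figure D1:**
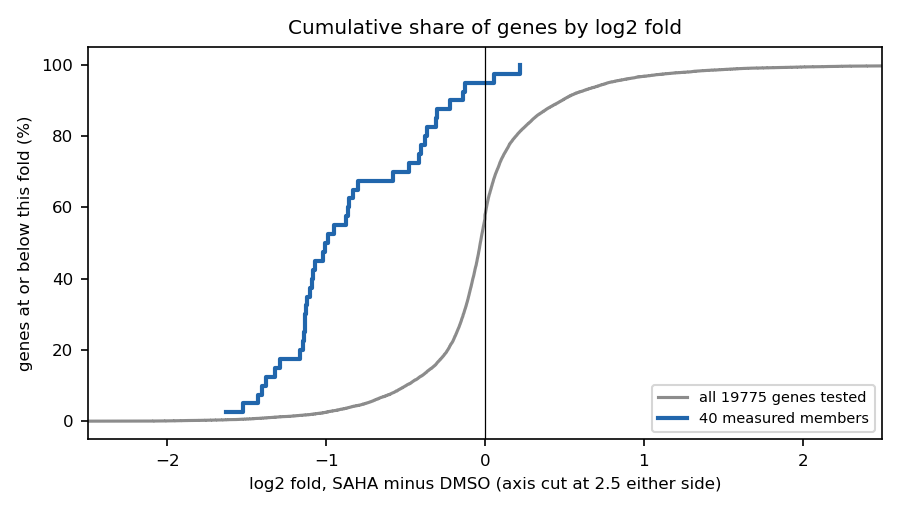
Cumulative share of genes (percent, vertical axis) at or below each log2 fold, SAHA minus DMSO (horizontal axis), for the 40 measured genes of the set and for all 19775 genes tested. The curve of the set lies to the left, with 38 of its 40 genes below 0 and a median of -0.998 against -0.03.

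On the brightest probe sets the folds fell into separate ranges. From CDCA8 (-1.63) up to CENPA (-0.80) there were 27 genes, and the next was ZWILCH (-0.58), which opened a range of 13 genes ending at NSL1 (0.22). The upper range held BUB3, MAD2L1 and MAD1L1 of the spindle checkpoint, both shugoshins, INCENP, SKA2, ZWILCH, CENPL, CENPQ, CENPW, NSL1 and CENPJ. Of these 13, ZWILCH, CENPJ and SKA2 passed the test. The 10 that did not pass were CENPL, CENPQ, CENPW, NSL1, BUB3, MAD2L1, MAD1L1, INCENP, SGO1 and SGO2. A p that misses the threshold does not show that a gene was equal in both groups. The gap between the ranges was seen in these values of the brightest probe sets and was not tested. Other probe sets of BUB3 (-0.69 and -0.59), CENPL (-0.66), MAD2L1 (-0.65), CENPI (-0.61) and ZWILCH (-0.59) lay within it. The rest of the other probe sets lay outside it.

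The start regions of the genes at both ends of this order show what the sequences next to them hold. RefSeq (GRCh38.p14) gave promoters of 300 bases, 250 before the start site and 50 after it, for 33 of the 40 genes, 36 promoters in all. They were searched on both strands for 3 elements found in cell cycle genes. The CHR element was read as TTTGAA and also in its variant form TTCGAA. The CCAAT box was read by its name, and the E2F site as TTCCCGC with the variant forms TTGGCGC, then also TTCGCGC, and lastly TTGCCGC. Matches may overlap. The promoters of the 3 lowest folds and of the 2 highest follow 5′ to 3′ on the strand of the gene, with every match to any element in capitals.
CDCA8: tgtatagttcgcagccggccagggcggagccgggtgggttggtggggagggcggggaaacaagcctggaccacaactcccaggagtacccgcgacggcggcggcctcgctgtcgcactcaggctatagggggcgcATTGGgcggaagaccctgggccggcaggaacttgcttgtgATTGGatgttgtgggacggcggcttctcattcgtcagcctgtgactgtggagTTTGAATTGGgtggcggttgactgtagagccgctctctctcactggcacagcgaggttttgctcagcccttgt
PMF1: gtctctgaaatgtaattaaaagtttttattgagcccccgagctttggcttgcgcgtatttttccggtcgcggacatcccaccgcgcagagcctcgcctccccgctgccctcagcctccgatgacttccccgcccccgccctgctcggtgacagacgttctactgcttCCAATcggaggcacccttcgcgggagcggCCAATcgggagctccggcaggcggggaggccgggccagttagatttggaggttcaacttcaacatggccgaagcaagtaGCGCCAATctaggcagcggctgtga
NDC80: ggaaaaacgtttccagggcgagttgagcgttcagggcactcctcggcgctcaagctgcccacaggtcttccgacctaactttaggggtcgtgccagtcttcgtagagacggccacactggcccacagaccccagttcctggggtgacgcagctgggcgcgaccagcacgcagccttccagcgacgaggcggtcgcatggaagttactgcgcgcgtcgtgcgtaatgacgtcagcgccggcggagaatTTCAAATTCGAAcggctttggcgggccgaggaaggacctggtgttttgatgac
SGO1: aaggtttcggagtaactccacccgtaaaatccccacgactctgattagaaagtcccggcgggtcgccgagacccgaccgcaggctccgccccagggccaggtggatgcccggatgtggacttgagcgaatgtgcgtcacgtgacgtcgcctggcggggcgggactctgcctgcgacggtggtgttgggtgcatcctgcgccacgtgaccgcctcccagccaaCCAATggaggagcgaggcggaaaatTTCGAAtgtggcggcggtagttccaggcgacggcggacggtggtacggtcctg
NSL1: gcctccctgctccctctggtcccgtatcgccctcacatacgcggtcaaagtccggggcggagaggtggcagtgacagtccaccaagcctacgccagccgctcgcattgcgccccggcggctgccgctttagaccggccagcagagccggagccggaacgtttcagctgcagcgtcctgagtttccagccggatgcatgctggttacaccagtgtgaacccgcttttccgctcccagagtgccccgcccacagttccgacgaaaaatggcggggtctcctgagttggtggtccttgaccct
The CDCA8 promoter (chr1:37692266-37692565, plus strand) had 3 CCAAT boxes, all as ATTGG, and 1 CHR element that starts 23 bases before the start site and overlaps the last of them. PMF1 (chr1:156212757-156213056, plus strand) had 3 CCAAT boxes, 1 of them overlapping an E2F site within the transcript, and no CHR element. In NDC80 (chr18:2571307-2571606, plus strand) there were 2 CHR elements side by side around the start site and no CCAAT box. SGO1 (chr3:20186157-20186456, minus strand) had 1 CCAAT box and 1 CHR element 3 bases before the start site, and its fold was 0.055. NSL1 (chr1:212791728-212792027, minus strand) held no match to any of the 3.

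Over the 36 promoters of the set, 19 (52.8%) held a CHR element, against 16.4% of all 35116 promoters in the table and 13.6% of the 21490 promoters of genes tested here. A CCAAT box was in 25 (69.4%, against 34.6% and 34.5%) and an E2F site in 15 (41.7%, against 13% and 16%). CHR and CCAAT together were in 14 (38.9%, against 6.38% and 5.4%). Among the genes that fell, 15 of 27 promoters had a CHR element (55.6%), and among those not called 4 of 9 (44.4%). For CCAAT the shares were 66.7% and 77.8%, and for E2F sites 48.1% and 22.2%. Elements were thus frequent in genes of the set that fell and also in SGO1, MAD2L1, CENPW and INCENP, which did not pass the test. A match is a description of letters and not a sign of binding, and some genes have several promoters.

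All 4 genes of the CENP-A nucleosome and its deposition fell (median log2 fold -1.11). OIP5, a subunit of the MIS18 complex that licenses loading, had log2 intensities of 10.68, 10.53 and 10.69 on the DMSO arrays (replicates 1, 2 and 3) and 9.53 and 9.46 on the SAHA arrays (1 and 2). Its log2 fold was -1.14 ± 0.07 (limma SE; adjusted p = 0.001). HJURP, the chaperone that carries CENP-A to centromeres, fell from 10.95 ± 0.07 (SD, n = 3) to 9.81 ± 0.02 (SD, n = 2), a log2 fold of -1.14 ± 0.06 (limma SE; adjusted p = 0.000733). SAHA and DMSO arrays did not overlap for HJURP or OIP5. MIS18A, the other MIS18 subunit measured, had a fold of -1.09 ± 0.16 (limma SE; adjusted p = 0.00899) with SAHA arrays further apart (9.69 and 9.23), and was not called in the unmoderated test (adjusted p = 0.059). CENPA itself fell too, with a fold of -0.80 ± 0.09 (limma SE; adjusted p = 0.00385), read by a probe set that can share sequence with other transcripts.

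Of 11 measured genes of the constitutive centromere network, 8 fell and 0 rose (median -0.95). CENPN, which binds the CENP-A nucleosome directly, had log2 intensities of 11.74, 11.75 and 11.87 in DMSO and 10.43 and 10.38 in SAHA, a log2 fold of -1.38 ± 0.06 (limma SE; adjusted p = 0.000597). CENPM, a partner of CENPI, had 10.18, 10.24 and 10.39 in DMSO and 8.83 and 9.06 in SAHA, a fold of -1.32 ± 0.10 (limma SE; adjusted p = 0.00154). CENPH gave 9.15, 8.97 and 9.01 in DMSO and 8.04 and 7.78 in SAHA, a fold of -1.13 ± 0.10 (limma SE; adjusted p = 0.0023). In all 3 every SAHA array was below every DMSO array. CENPU (-1.13 ± 0.06, SE), CENPO (-1.10 ± 0.07), CENPI (-0.95 ± 0.13), CENPC (-0.86 ± 0.06), which links CENP-A to the outer kinetochore, and CENPK (-0.83 ± 0.14) also fell, with limma adjusted p-values of 0.00071 to 0.0127. CENPK lost its call without DMSO 1, DMSO 2 or DMSO 3 (limma adjusted p = 0.0596, 0.066 and 0.0599), and CENPI without SAHA 2 (0.053) or in the unmoderated test (0.0543).

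The other 3 of the network did not pass. CENPL, a partner of CENPN, had log2 intensities of 9.53, 9.44 and 9.44 in DMSO and 9.39 and 8.71 in SAHA, so that SAHA 1 was close to the DMSO arrays and SAHA 2 well below them. Its log2 fold was -0.42 ± 0.21 (limma SE; adjusted p = 0.236), and without SAHA 1 it was called at -0.76 (0.0192). CENPW, a histone-fold protein that pairs with CENPT, had 11.80, 12.13 and 12.22 in DMSO and 11.73 and 11.64 in SAHA, with DMSO 1 nearest to the SAHA arrays. The CENPW fold was -0.37 ± 0.14 (limma SE; adjusted p = 0.133), and without DMSO 1 it was called at -0.49 (0.0212). For CENPQ the fold was -0.13 ± 0.17 (limma SE; adjusted p = 0.637), with SAHA arrays on either side of the DMSO arrays.

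All 4 subunits of the NDC80 complex, the main microtubule receptor, fell at least 2-fold (median -1.35). NDC80 had log2 intensities of 10.97, 10.86 and 10.89 in DMSO and 9.71 and 9.25 in SAHA, a log2 fold of -1.43 ± 0.14 (limma SE; adjusted p = 0.00311). SPC25 (-1.41 ± 0.12, SE), SPC24 (-1.29 ± 0.09) and NUF2 (-1.01 ± 0.14) followed. SAHA and DMSO arrays did not overlap for any of the 4, and SAHA 2 was the lower SAHA array each time. NUF2 was less than 2-fold lower without DMSO 1, DMSO 2 or SAHA 2 (-0.98, -0.98 and -0.80), and an unmoderated test did not call it (adjusted p = 0.0525).

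The MIS12 complex, which joins the inner to the outer kinetochore, had 3 of its 4 genes lower and 0 higher (median -0.93). PMF1, a subunit, had log2 intensities of 9.16, 9.44 and 9.43 in DMSO and 7.85 and 7.79 in SAHA, a log2 fold of -1.52 ± 0.10 (limma SE; adjusted p = 0.00117). DSN1 (-0.99 ± 0.09, SE) and MIS12 (-0.88 ± 0.09) fell too. The remaining subunit, NSL1, had 10.77, 10.62 and 10.59 in DMSO and 10.83 and 10.93 in SAHA, a fold of 0.22 ± 0.07 (limma SE; adjusted p = 0.094). Both SAHA arrays of NSL1 were thus above the DMSO arrays, without passing the test, while those of the other 3 subunits were below. NSL1 has 3 further probe sets, with log2 folds of 0.20, 0.029 and -0.075, and 0 of them were called. The sign for NSL1 turned after scaling by the poly-A controls (-0.24). Its values by array are outside the rule for named genes and were chosen after they were seen, as are those of BUB3 and SGO1 given later.

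KNL1, the scaffold on which checkpoint proteins gather, and its partner ZWINT both fell. ZWINT had log2 intensities of 13.23, 13.14 and 13.09 in DMSO and 12.15 and 11.99 in SAHA, a log2 fold of -1.08 ± 0.07 (limma SE; adjusted p = 0.00114). KNL1 had a fold of -1.07 ± 0.18 (limma SE; adjusted p = 0.0137), and it was not called without DMSO 1, DMSO 2 or SAHA 2 (0.0528, 0.0712 and 0.0789). All 3 SKA genes, whose complex follows shrinking microtubules beside NDC80, fell (median -1.02). SKA3 had 9.44, 9.34 and 9.48 in DMSO and 8.26 and 8.25 in SAHA, a fold of -1.17 ± 0.06 (limma SE; adjusted p = 0.0007), and SKA1 a fold of -1.02 ± 0.13 (limma SE; adjusted p = 0.00656). SKA2 gave -0.31 ± 0.06 (limma SE; adjusted p = 0.0174), and its SAHA arrays also lay below its DMSO arrays. Without SAHA 1 or SAHA 2 only SKA3 of the complex was called (SKA1 at 0.0569 and 0.0649, SKA2 at 0.0729 and 0.0855), and SKA2 was also not called without DMSO 1 (0.064).

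Genes of the fibrous corona and the spindle checkpoint were divided, with 3 of 6 lower and 0 higher (median -0.49). CENPF, a large protein of the corona, had log2 intensities of 12.20, 12.04 and 12.16 in DMSO and 11.01 and 10.96 in SAHA, a log2 fold of -1.15 ± 0.06 (limma SE; adjusted p = 0.000812). The kinesin CENPE (-0.86 ± 0.07, limma SE, adjusted p = 0.00194) and ZWILCH of the complex that brings dynein to kinetochores (-0.58 ± 0.07, limma SE, adjusted p = 0.00555) fell as well. On their brightest probe sets the checkpoint genes MAD2L1, BUB3 and MAD1L1 had overlapping groups. MAD2L1, which forms the inhibitor of the anaphase-promoting complex, had 11.82, 11.88 and 11.69 in DMSO and 11.71 and 11.08 in SAHA, a fold of -0.40 ± 0.20 (limma SE; adjusted p = 0.232). BUB3 had 12.99, 12.93 and 12.92 in DMSO and 13.13 and 12.49 in SAHA, a fold of -0.14 ± 0.20 (limma SE; adjusted p = 0.647), with SAHA 1 the highest and SAHA 2 the lowest of its 5 arrays. MAD1L1, the kinetochore receptor of MAD2L1, gave -0.22 ± 0.16 (limma SE; adjusted p = 0.392). Without SAHA 1 the count of lower genes was 5 of 6, since BUB3 (-0.46, 0.0233) and MAD2L1 (-0.72, 0.0369) were then called, and it was also 5 with probe sets averaged, where both were called as well. Without SAHA 2 the fold of BUB3 was 0.18 (0.0708).

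In the chromosomal passenger complex, 2 of 3 measured genes fell. CDCA8 (borealin), which targets the complex to centromeres, had log2 intensities of 10.74, 10.78 and 10.81 in DMSO and 9.24 and 9.06 in SAHA, a log2 fold of -1.63 ± 0.07 (limma SE; adjusted p = 0.000586). BIRC5 (survivin), its partner in targeting, fell from 11.97 ± 0.08 (SD, n = 3) to 10.85 ± 0.08 (SD, n = 2), a fold of -1.12 ± 0.07 (limma SE; adjusted p = 0.00103). INCENP, the scaffold that activates the kinase, had 6.93, 7.24 and 7.08 in DMSO and 6.48 and 7.08 in SAHA, a fold of -0.30 ± 0.20 (limma SE; adjusted p = 0.345). Its arrays overlapped, with SAHA 1 lowest of all 5 and SAHA 2 within the DMSO range. INCENP had the lowest mean level of the measured genes of the set (percentile 41.55 of all genes) and no other probe set. The kinase of the complex, AURKB, is not in the set and gave -1.48 ± 0.11 (limma SE; adjusted p = 0.00146).

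Neither shugoshin passed the test. SGO2, a relative of SGO1, had log2 intensities of 10.65, 10.53 and 10.45 in DMSO and 10.34 and 9.99 in SAHA, a log2 fold of -0.38 ± 0.13 (limma SE; adjusted p = 0.0971), with both SAHA arrays below the DMSO arrays. The other probe set of SGO2 had a log2 fold of 0.0026 ± 0.42 (limma SE) and was not called. Its SAHA values (9.21 and 9.34) lay within its DMSO range (8.58 to 9.94). On their brightest probe sets SGO2 and CENPW were called lower when arrays were scaled by ribosomal protein genes (limma adjusted p = 0.0165 and 0.0431). They were also called lower when quantile normalization was run again (0.0356 and 0.0499). SGO1 had 8.45, 8.27 and 8.44 in DMSO and 8.44 and 8.44 in SAHA, a fold of 0.06 ± 0.07 (limma SE; adjusted p = 0.619). The arrays DMSO 3, SAHA 1 and SAHA 2 gave SGO1 the same value to the digits kept (8.44406), and DMSO 2 alone was lower. Equal values also occurred within INCENP (7.07543 on DMSO 3 and SAHA 2) and CENPL (9.43935 on DMSO 2 and DMSO 3). Why these values were equal was not tested. The sign for SGO1 turned without DMSO 2 (-0.0051), with its probe sets averaged (-0.042) and after scaling by the poly-A controls (-0.41). CENPJ carries a centromere name but acts in building centrioles. It had 9.78, 9.64 and 9.66 in DMSO and 9.32 and 9.11 in SAHA, a fold of -0.48 ± 0.09 (limma SE; adjusted p = 0.0155). Its call ended without DMSO 1, DMSO 2, DMSO 3 or SAHA 2 (0.0565, 0.0576, 0.0678 and 0.0604).

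**Figure D2:**
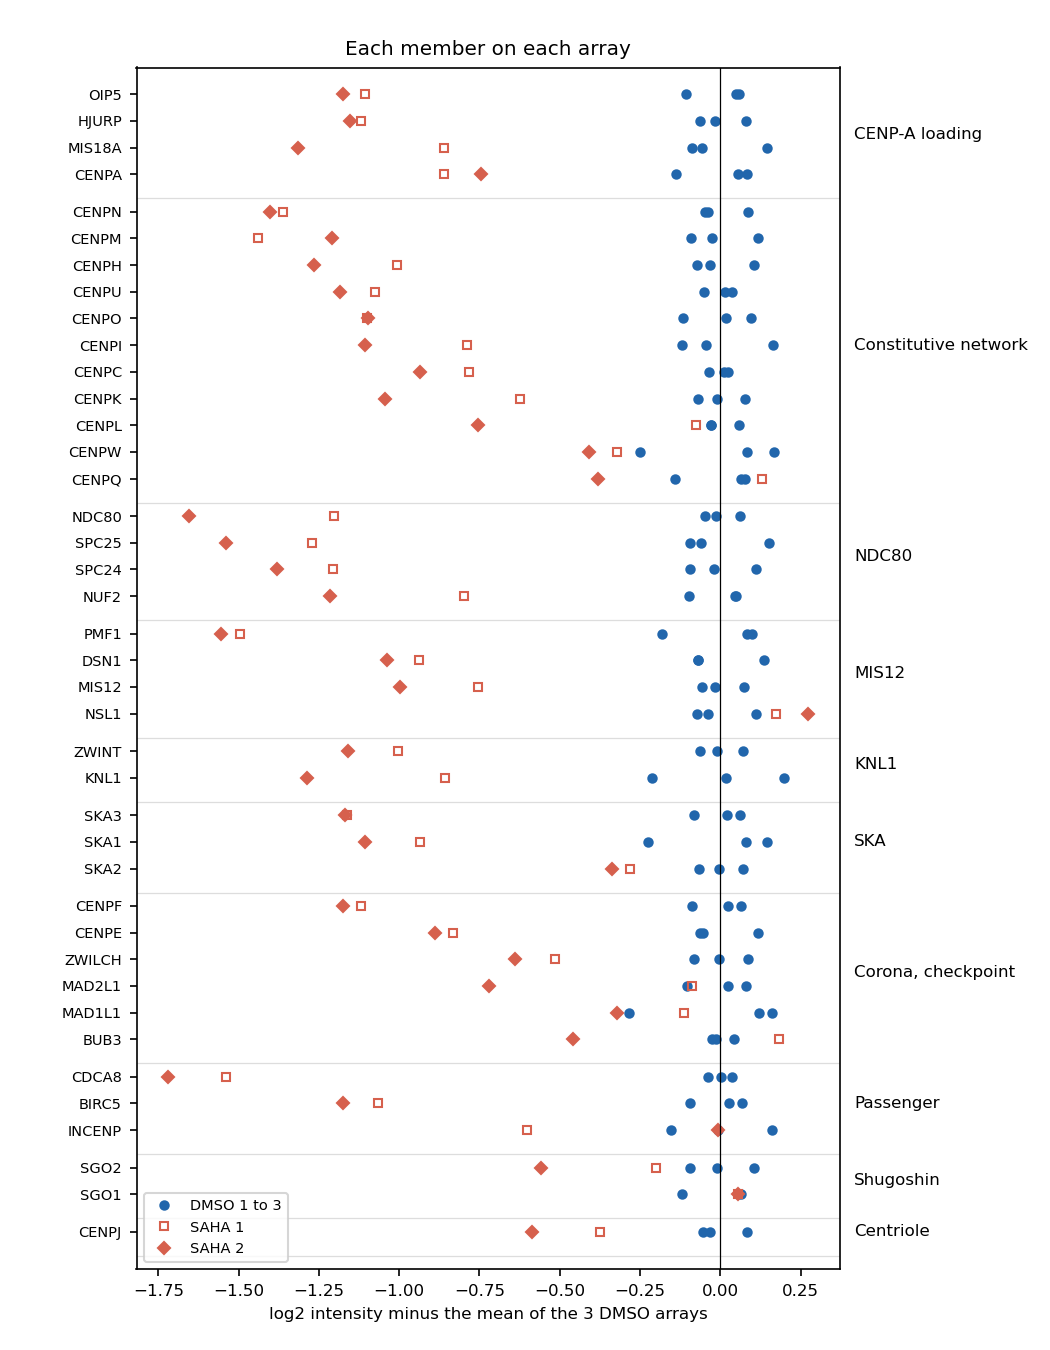
Log2 intensity of each of the 40 measured genes on each array, minus the mean of its 3 DMSO arrays (horizontal axis), with genes in rows ordered by fold within their role. Circles are the DMSO arrays, open squares SAHA 1 and filled diamonds SAHA 2; the diamonds lie left of the squares for 34 of the 40 genes.

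The SAHA arrays differed from each other within the set. SAHA 2 was below SAHA 1 for 34 of 40 genes (85%), against 42.4% of all genes, and the median difference (SAHA 2 minus SAHA 1) was -0.155 in the set and 0 over all genes. Among the genes that did not pass, CENPL, BUB3, MAD2L1, MAD1L1 and CENPQ had SAHA 2 below every DMSO array and SAHA 1 within, near or above them. INCENP went the other way. With 2 SAHA arrays it cannot be said which is the more typical. The median log2 fold of the set was -1.10 without SAHA 1 and -0.86 without SAHA 2, against -0.009 and -0.03 over all genes. Of the 30 genes that fell, 24 stayed called lower with each array left out in turn. Without DMSO 1, which had the highest ACTB 3' minus 5' difference, 27 were called lower (11.9% of all genes). The count was also 27 without DMSO 2 (11.2% of all genes) and was 28 without DMSO 3 (10.0%). The part of RNA quality in these results was not tested.

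Probe sets other than the brightest gave a second reading of 18 of the genes. These 18 genes had 37 further probe sets, of which 21 were called lower (11.1% of all 41091 probe sets with 1 gene), 0 higher (11.0%, limma) and 16 not, while 33 had the sign of the brightest. Of the 10 genes that did not pass, 3 had another probe set that was called lower. BUB3 had 4 such probe sets, at -0.59, -0.69, -0.52 and -0.44 (limma adjusted p over all probe sets 0.00363 to 0.0435), against -0.14 for its brightest. MAD2L1 had 2, at -0.90 and -0.65, and CENPL 1, at -0.66. With all probe sets averaged, BUB3 (-0.40), MAD2L1 (-0.65) and CENPL (-0.54) were each called lower (limma adjusted p = 0.0294, 0.0201 and 0.0351).

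For some genes that fell the probe sets differed. CENPF had -1.15 from its brightest probe set, but -0.32 and -0.43 from its other probe sets, neither of which was called. Without shared-sequence probe sets CENPF was not called (-0.43, limma adjusted p = 0.212). The probe set that then read CENPF had a mean log2 intensity of 4.61 over the arrays, against 11.67 for the brightest. The CENPF probe set at -0.32 was not dim, with a mean log2 intensity of 9.70. Its SAHA 1 value (9.87) lay within the DMSO range (9.62 to 10.04), and its SAHA 2 value (9.15) lay below it. SPC24 had -0.041 from its other probe set (mean log2 6.67) against -1.29 from its brightest (9.88), and -0.67 with both averaged. Both probe sets of CENPO were called, at -0.31 and -1.10. CENPJ lost its call with its 3 probe sets averaged (-0.19, limma adjusted p = 0.0614), and SKA2 with its 2 (-0.27, 0.0552). The other probe sets of CENPJ had mean log2 intensities of 6.07 and 4.65, against 9.50 for the brightest. BIRC5, MIS18A, CENPU and ZWILCH, like CENPO, were called lower by every probe set used here. For BIRC5 the 4 folds ran from -1.28 to -1.01. For 14 of the 40 genes the brightest probe set is of a kind that can share sequence with other genes or transcripts, and 6 have no other kind.

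**Figure D3:**
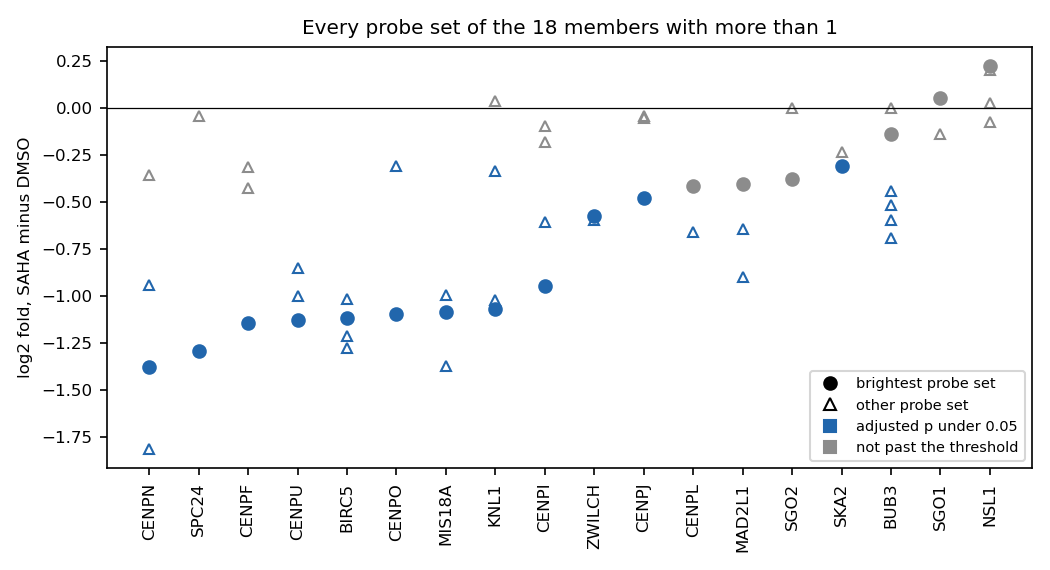
Log2 fold, SAHA minus DMSO (vertical axis), of every probe set of the 18 genes with more than 1, ordered by the fold of the brightest (filled circle; open triangles are the others). Blue marks an adjusted p under 0.05 over all probe sets; 4 of the 5 other probe sets of BUB3 and both of MAD2L1 are blue although their brightest is not.

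Lists of related genes, among them a list of cell cycle regulators, had medians closer to 0 than the set. These lists were drawn up by function, also with earlier results of these data known. Their counts stand beside 15.6% of all genes lower and 14.0% higher. Of 26 kinetochore and checkpoint genes outside the set, 18 fell and 1 rose (median log2 fold -0.65). NDE1, which brings dynein to the kinetochore, had a log2 fold of -1.53 ± 0.08 (SE), AURKB of -1.48 ± 0.11 and TRIP13, which takes MAD2L1 complexes apart, of -1.45 ± 0.07. With probe sets averaged NDE1 was at -0.61 and AURKB at -0.95, both still called. On the brightest probe sets the limma adjusted p-values of the 3 were 0.000664 to 0.00146. DYNLT3, a dynein light chain, rose (0.28 ± 0.05, limma SE, adjusted p = 0.0203). That rise was called without SAHA 2 and was not without DMSO 1, DMSO 2, DMSO 3 or SAHA 1 (0.0719, 0.0556, 0.0795 and 0.0602), and its sign turned after scaling by the poly-A controls (-0.18).

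Of 11 measured centromere proteins and histone chaperones outside the set, 7 fell and 0 rose (median -0.32). CENPV fell most (-1.69 ± 0.08, limma SE, adjusted p = 0.000661), followed by SUPT16H (-0.69 ± 0.05, SE) and SSRP1 (-0.65 ± 0.05), subunits of the FACT histone chaperone. This count was 5 without DMSO 1 and 3 without DMSO 2 or DMSO 3, where 11.9%, 11.2% and 10.0% of all genes were lower. Among 19 genes of the anaphase-promoting complex and its substrates, 12 fell and 0 rose (median -0.30). Without DMSO 1, DMSO 2 or DMSO 3 the genes lower in this list were 8, 10 and 8, beside the same shares of all genes. ESPL1 (separase), on this list though neither a subunit nor a known substrate of the complex, had -1.45 ± 0.06 (limma SE, adjusted p = 0.000609). UBE2C, the ubiquitin-conjugating enzyme of the complex, had -1.21 ± 0.07 (SE) and the inhibitor FBXO5 -1.19 ± 0.15. Of 16 genes of the DREAM repressor complex and the activators of late cell cycle genes, 5 fell and 0 rose (median -0.21). These included the activator FOXM1 (-1.52 ± 0.10, limma SE, adjusted p = 0.00104), TFDP1, the partner of E2F factors (-1.29 ± 0.05, SE), and the pocket protein RBL1 (-1.22 ± 0.27). In that list 3 of 16 fell without DMSO 1, DMSO 2 or DMSO 3, where 11.9%, 11.2% and 10.0% of all genes were lower. In the fit without DMSO 2, 1 of the list rose, beside 9.27% of all genes higher. With an array left out, RBL1 was called only without SAHA 1 (limma adjusted p = 0.0821 to 0.119 otherwise, without DMSO 1, DMSO 2, DMSO 3 or SAHA 2).

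**Figure D4:**
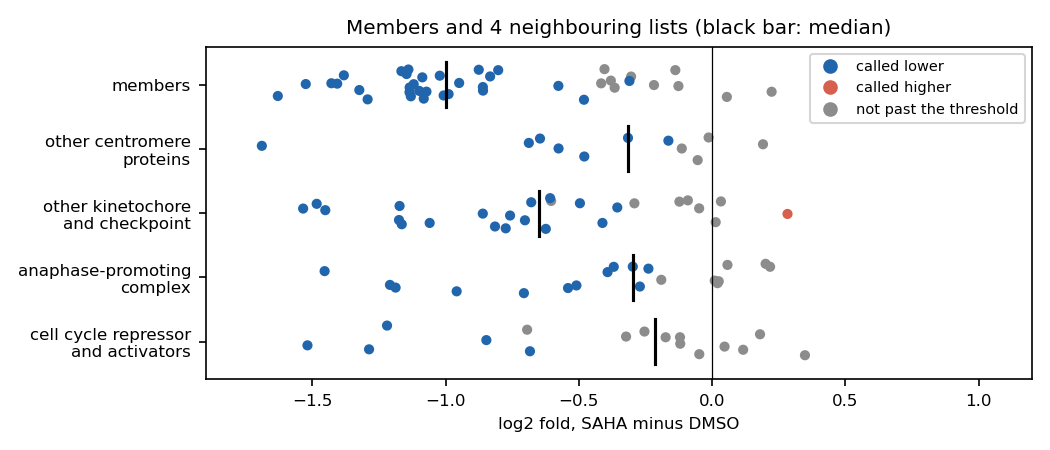
Log2 fold, SAHA minus DMSO (horizontal axis), of each gene of the set (top row) and of 4 neighbouring lists; vertical placement within a row is arbitrary and the black bars are medians. The medians were -0.998 for the set and -0.32, -0.65, -0.30 and -0.21 for the lists from top to bottom.

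The arrays as a whole separated by treatment. Pearson's r across genes, which are not independent replicates, was 0.997 to 0.999 within groups and 0.979 to 0.98 between them. Among all genes 3089 were called lower and 2760 higher, 29.6% in all. The 3' minus 5' log2 difference for ACTB, a measure of RNA integrity, was 3.29 on DMSO 1 and 2.04 to 2.22 on the other arrays. Control RNAs with poly-A tails had a median log2 difference of 0.37 (SAHA minus DMSO), and subtracting each array's median over them moved the median gene to -0.50, the share of calls that were higher from 47.2% to 6.60% and the median of the set to -1.46. All changes given here are relative to the deposited scale. Mean DMSO log2 intensities ran from 6.14 (SPARC) to 13.97 (VIM) over 8 mesenchymal markers, from 4.49 (PGR) to 13.51 (KRT18) over 8 luminal, from 3.78 (PTPRC) to 6.92 (CD14) over 5 leukocyte and from 3.96 (CDH5) to 7.48 (PECAM1) over 4 endothelial markers. Each probe set has its own scale, so these levels are not set against each other, and the table has no detection calls to show absence. Called lower and higher were 2 and 2 of the mesenchymal, 3 and 1 of the luminal, 1 and 1 of the leukocyte and 0 and 1 of the endothelial genes, beside 15.6% and 14.0% of all genes. The higher genes were CDH1 (3.11-fold), KDR (2.20-fold), CD14 (1.83-fold), EGFR (1.58-fold) and FN1 (1.33-fold). The lower genes were EPCAM (1.65-fold), ERBB2 (1.56-fold), MSN (1.29-fold), PTPRC (1.26-fold), AXL (1.25-fold) and GATA3 (a log2 fold of -0.26). These genes moved with the treatment, and their part in these results was not tested.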

How the data were processed

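RNA of 5 samples was hybridised to oligonucleotide arrays, 1 sample an array. The deposited values are linear intensities, made by the authors with RMA in R 2.12 per the submitters' processing notes, which give no further steps. RMA normalizes quantiles across arrays, so a shift of all transcripts is removed. Values were read as log2 without further normalization. Of 54675 probe sets, 41091 had 1 gene, and 62 controls, 1801 with several genes and 11721 with none named were left out. Symbols were updated through RefSeq gene identifiers (41037 matched). The probe set with the highest mean stood for its gene (19775 genes, no filter on level).

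The SAHA and DMSO arrays entered a moderated two-sided test by limma 3.58.1 (R 4.3.3) without covariates, with 3 residual and 1.62 prior degrees of freedom. P-values were adjusted over all genes by the Benjamini-Hochberg method, and calls use 0.05. The code was tested on simulated data. Members and lists were chosen with earlier results of these data known, and no set test was run. All members are named. Values on every array are given for the lowest members of each role and for those not called with an absolute log2 fold over 0.3. Of each further list, up to 3 called genes with the largest absolute fold and any called higher are named. Alternatives covered scaling (each array's median over all genes, ribosomal protein genes or poly-A controls subtracted), dim genes (below the 40th percentile), the probe set of a gene, the variance model, array weights, a replicate block, a threshold of 0.01 and each array left out. The small number of arrays limits the precision. Promoters were searched with Python 3.11.15 and pandas 2.3.3, and plots drawn with matplotlib 3.10.9.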

Additional observations from a re-analysis of the deposited data

How the results depend on the processing

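The count of members called lower was 23 to 39 over the 20 alternatives and that of members called higher 0 in each. The 39 came with centring on the poly-A controls, where 81.0% of all genes were lower (73.2% in the second form given below). The 23 came in the unmoderated test, where 9.26% of all genes were lower. Of the 30 members called lower, 21 were called lower under every alternative that measured them. Leaving out 1 array at a time gave 25 to 31 members lower. The members' median log2 fold was -1.46 with centring on the poly-A controls, -0.85 with averaged probe sets, -0.88 without shared-sequence probe sets, and -1.10 to -0.86 over the fits that lack 1 array. Over those fits the folds of CENPQ (-0.38 to 0.13), BUB3 (-0.46 to 0.18) and SGO1 (-0.0051 to 0.0880) took both signs, the turned sign coming without SAHA replicate 2, SAHA replicate 2 and DMSO replicate 2. SGO1 was at -0.042 with averaged probe sets. Centring on the poly-A controls turned NSL1 (-0.24), SGO1 (-0.41) and DYNLT3 (-0.18). It called 17140 genes (16008 lower, 1132 higher) against 5849 (3089 and 2760), with 11 genes of the centromere list and 15 of the repressor list lower, 0 of the kinetochore list higher and 36 of the other probe sets lower. By construction it lowers every SAHA value relative to DMSO. For the other changes the cause was not tested.

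Another form of the centring, on the median deviation of the reference genes or controls from their own means, was chosen after seeing the results of the first form and is given beside it. With the poly-A controls it called 15996 genes (14472 lower, 1524 higher) and 39 members lower, with a members' median of -1.34, 13 genes of the repressor list lower and 0 of the kinetochore list higher. Under it NSL1 was at -0.12, SGO1 at -0.28 and DYNLT3 at -0.057. With the ribosomal protein genes, CENPW and SGO2 were called lower in the first form and not in the second (limma adjusted p = 0.0738 and 0.0589), and the repressor list had 9 lower in the first.

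Genes called numbered 3369 (1831 lower, 1538 higher) in the unmoderated test, 3317 (1773 and 1544) at a threshold of 0.01, and 3754 to 5031 (1985 to 2797 and 1769 to 2234) over the fits that lack 1 array. The unmoderated test did not call the members MIS18A, CENPI, CENPK, NUF2, KNL1, SKA2 and CENPJ, and the threshold of 0.01 CENPK, KNL1, SKA2 and CENPJ. The unmoderated test, the threshold of 0.01 and the removal of shared-sequence probe sets each left 3 genes lower in the centromere list, 7 in the anaphase-promoting list and 3 in the repressor list. That removal left 17098 genes and 34 members measured, so its list counts may rest on fewer genes or on dimmer probe sets. The unmoderated test and the threshold of 0.01 left 0 higher in the kinetochore list. Averaged probe sets gave 8 lower in the repressor list. In that list 1 was higher with quantile normalization run again, centring on the median gene, no dim genes, averaged probe sets, and the median deviation of all genes or of ribosomal protein genes. The fits that lack 1 array gave 3 to 5, 7 to 10 and 3 to 8 lower in the centromere, anaphase-promoting and repressor lists, and 0 to 1 higher in the kinetochore, anaphase-promoting and repressor lists.

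Replicate numbers are shared between groups for 2 pairs only. The deviations from the group means correlated at 0.15 for number 1 and -0.07 for number 2. With 2 SAHA arrays their deviations are equal and opposite, so these values are tied to each other. They cannot show whether a shared number marks a shared culture or batch. Replicate 3 has no SAHA array, so under a replicate block DMSO 3 adds nothing to the folds. CENPA was at -0.76 both with the block and without DMSO 3. The block also leaves fewer residual degrees of freedom than the main fit. With it 2578 genes were called (1316 lower, 1262 higher) and 26 members were lower, CENPK, NUF2, SKA1 and SKA2 not being called. Why those calls were lost was not tested. The block left 3 lower in the centromere list, 6 in the anaphase-promoting list and 0 higher in the kinetochore list. With no detection calls, how far single probe sets stood above background is unknown.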
